A study of Hydra vulgaris with 12 samples.

Results

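Hydra is a freshwater polyp that can rebuild its head from the upper cut end of its body column, and the 2 h to 4 h step of that process is described here through 14283 transcripts. They were chosen for reaching 1 RPKM or more in 2 or more of the 12 libraries, and they make up 82.31% of the 17353 transcripts measured. RPKM is a read count divided by transcript length and by the number of mapped reads in the library. The 2 transcripts just inside this limit had a second-highest value of 1.0011 and 1.0058 RPKM, and the 2 just outside it had 0.99978 and 0.99883 RPKM. The other 3070 transcripts stayed below the limit and were not tested.

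The animals were strain 105 of Hydra magnipapillata, which the labels file under Hydra vulgaris, with no transgene, drug or uncut control named. Each library came from a pool of 50 to 100 asexual polyps bearing a young bud and starved for 1 day, bisected between the body regions R1 and R2. The 2 h group held 2 pools left to regenerate for 2 h, the 4 h group held 2 pools left for 4 h, and the same number was taken at 0, 6, 12 and 48 h. The labelled tissue is regenerating head, while the protocol names the R2 to R3 region as what was lysed, so the RNA is that of the upper trunk with its cut end. The labels do not state whether the pools of a time came from separate days, so p-values measure the spread between these pools.

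In Hydra a small group of cells at the tip, the head organizer, directs the pattern of the body column, and Wnt signalling through beta-catenin is central to it. After the head is removed, the wounded end closes, and an organizer is set up again in the tissue below the cut before tentacles appear. Wnt3, a secreted ligand of that organizer, was the only transcript that the table paired with a gene name. The others carry identifiers that could not be paired with names here, apart from the RefSeq prefix that marks a predicted mRNA (XM) or a predicted non-coding RNA (XR). The labelled tissue could therefore not be checked against marker genes, and no gene list of a pathway or cell type could be counted. In pooled tissue of this kind, fewer cells of a type and less RNA per cell cannot be told apart.

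From 2 h to 4 h, 475 transcripts rose and 345 fell. Calls needed a change of at least 1 on the log2(RPKM + 1) scale and an adjusted p (limma, Benjamini-Hochberg) under 0.05, in a model of all 12 libraries. The 820 calls make up 5.74% of the transcripts tested, with 3.33% rising and 2.42% falling. Every one of the 820 had both 4 h libraries on the same side of both 2 h libraries. Over all transcripts tested, both 4 h libraries lay above both 2 h libraries in 3297 (23.1%) and below them in 6450 (45.2%), so that pattern is common here and the calls rest on the model. After scaling each library to its median ratio to a geometric-mean library, the counts were 4402 (30.8%) and 4930 (34.5%). With 2 libraries against 2, an exact permutation test of a single transcript cannot give a two-sided p under 0.333.

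**Figure D1:**
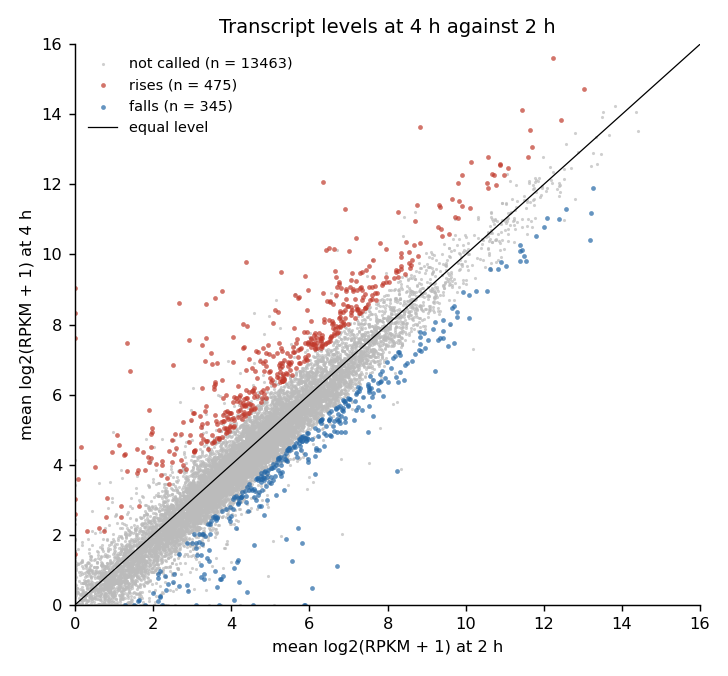
Each point is a transcript, with its mean log2(RPKM + 1) in the 2 libraries of 2 h on the x axis and of 4 h on the y axis. The 475 rises lie above the line of equal level and the 345 falls below it, and the rises reach farther from the line.

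In the deposited values the rises were larger than the falls, and this was not compared under other scalings. The median rise was 1.53 on the log2 scale and the largest 9.05, whereas the median fall was -1.33 and the largest -5.88. Of the rises, 335 lay between 1 and 2, 121 between 2 and 4, and 19 at 4 or more. Of the falls, 300 lay between 1 and 2 in size, 36 between 2 and 4, and 9 at 4 or more. Over all transcripts tested, the median change was -0.18, with quartiles of -0.51 and 0.20. The median absolute difference between replicates of the rises was 0.225 for 2 h and 0.199 for 4 h, and that of the falls was 0.208 and 0.198, against 0.195 and 0.193 for all transcripts tested. The calls were chosen for a change that is large beside this spread, so the comparison is a description.

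The median transcript thus lay lower at 4 h than at 2 h. Median-ratio scaling, in which a library is divided by its median ratio to a geometric-mean library, moved that median to -0.04, and the split became 622 rises and 205 falls. The share of rises among the calls went from 57.9% to 75.2%. All 475 rises were kept under this scaling and 205 of the 345 falls (59.4%), and no transcript changed direction. The scaling shifts the changes of nearly all transcripts upward, so it could hardly remove a rise or reverse a call. That the rises were kept is therefore no test of them. With quantile normalization there were 538 rises and 317 falls.

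The number of calls also rested on single libraries. With 2 h replicate 1 left out it was 349, with 2 h replicate 2 left out 518, with 4 h replicate 1 left out 283 and with 4 h replicate 2 left out 353. Leaving out a library of another time gave 675 to 1043 calls. In all 12 of these fits, 157 of the rises (33.1%) and 71 of the falls (20.6%) were called. A fit of only the 4 libraries of 2 h and 4 h called 570 rises and 577 falls, among them 441 of the 475 rises (92.8%) and 323 of the 345 falls (93.6%).

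The rises took up a large part of the measured RNA. Their summed share of RPKM was 6.127% and 7.477% in the 2 h libraries, and 23.99% and 23.29% in the 4 h libraries. The falls held 9.043% and 8.136% at 2 h, and 2.681% and 2.881% at 4 h. Since these sets were chosen for their change between these libraries, the shares describe the size of the change and test nothing. In libraries that had no part in the contrast, the rises went from 6.921% and 6.584% at 0 h to 23.76% and 25.29% at 6 h. The falls held 7.661% and 8.145% at 0 h and 2.771% and 2.779% at 6 h. Transcripts with no call held 84.83% and 84.39% of RPKM at 2 h and 73.33% and 73.83% at 4 h. RPKM is relative to the mapped reads of a library, and the part of this change in the lower median transcript was not tested.

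The most abundant transcript at 4 h was itself a rise. XM_002168126.2, a predicted mRNA singled out after its values were seen, stood at 3362.4 and 6889.7 RPKM at 2 h, against 50207 and 49669 RPKM at 4 h. The 4 h libraries are close to each other and far above those of 2 h, which differ from each other by more. The ratio of the means was 9.74 and the log2 fold change 3.38 (SE 0.339, limma adjusted p = 9.017e-04), and the call held in all 23 alternatives. It stood at 3503 and 3941.8 RPKM at 0 h, 50120 and 59271 RPKM at 6 h, 44764 and 41946 RPKM at 12 h, and 5074.8 and 8526.1 RPKM at 48 h. It was thus high in all 6 libraries of 4 to 12 h and low in the other 6. It held 0.243% and 0.493% of RPKM at 2 h and 3.32% and 3.23% at 4 h, and the remaining rises without it held 5.883% and 6.984% at 2 h and 20.67% and 20.06% at 4 h.

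At 2 h the leading transcript was a predicted non-coding RNA, XR_181677.1, also singled out after its values were seen. Its level was 24436 and 19152 RPKM at 2 h, against 11442 and 12152 RPKM at 4 h. The 2 h libraries both lie above those of 4 h. Its log2 fold change of -0.88 (SE 0.174, limma adjusted p = 0.0163) was under the size that counts as a call, so it was not among the 345 falls. It passed that size with quantile normalization and without 2 h replicate 2.

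Calls were more frequent among abundant transcripts. By the mean of the 0 h libraries, which had no part in the contrast and were taken for this after seeing the data, 7.37% of the 2007 transcripts of 100 RPKM or more rose and 5.93% fell. The shares were 3.41% and 2.46% for the 5248 transcripts of 20 to 100 RPKM, and 2.43% and 1.48% for the 4325 of 5 to 20 RPKM. They were 1.47% and 1.05% for the 1910 of 1 to 5 RPKM, and 1.89% and 1.64% for the 793 below 1 RPKM. Rises outnumbered falls in each of these 5 classes, and also with median-ratio scaling. By the mean over all 12 libraries, to which the change itself contributes, 12.4% of 1909 transcripts of 100 RPKM or more rose and 4.66% fell, and at 5 to 20 RPKM 1.12% of 4657 rose and 1.95% fell. With classes made in that way the falls outnumbered the rises below 20 RPKM, and median-ratio scaling turned that order at 5 to 20 RPKM, to 71 rises and 53 falls. The log2(RPKM + 1) scale shrinks changes of weakly expressed transcripts, and its part in these shares was not tested. The median change by 0 h level lay between -0.21 and -0.06 in every class.

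Predicted non-coding RNAs made up 330 of the transcripts tested, of which 26 rose (7.88%) and 13 fell (3.94%), against 3.22% and 2.38% of the 13952 predicted mRNAs. With median-ratio scaling the shares were 9.7% and 1.82% against 4.23% and 1.43%. These non-coding RNAs were also more abundant, with a median of 56.4 RPKM against 18.0 RPKM over the 12 libraries. Among transcripts of 20 to 100 RPKM by the same mean, 2.68% of 112 non-coding RNAs rose. In the same range 3.79% of 3402 mRNAs of the XM_002 accession series and 3.37% of 1337 of the XM_004 series rose. At 100 RPKM or more the shares were 17.6% of 125, 10.6% of 1370 and 16.9% of 414. The difference between the kinds of transcript was not tested.

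Most changes kept a level on both sides, which was not counted over all transcripts tested and may not be particular to the calls. At least 1 RPKM was present in all 4 libraries for 452 of the rises (95.2%) and 298 of the falls (86.4%). Among these, the ratio of the 4 h mean to the 2 h mean of the rises had a median of 2.87 and quartiles of 2.35 and 4.31, up to 54.7. The ratio of the 2 h mean to the 4 h mean of the falls had a median of 2.53 and quartiles of 2.23 and 3.06, up to 14.3. The transcripts named next were taken by a fixed rule as the 2 largest rises and the 2 largest falls of this kind on the log2 scale.

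XM_004209513.1, a predicted mRNA, went from 1.98 and 12.6 RPKM at 2 h to 480 and 314 RPKM at 4 h. Both pairs of replicates are uneven, and the groups are far apart. Its log2 fold change was 5.94 (SE 0.96, limma adjusted p = 0.00707). It was no longer called when 2 h replicate 1 (adjusted p = 0.0588) or 4 h replicate 1 (0.0650) was left out. Over 23 alternatives the adjusted p ran from 4.399e-04 to 0.0650. It stood at 26.0 and 4.73 RPKM at 0 h, 427 and 245 RPKM at 6 h, 102 and 57.1 RPKM at 12 h, and 38.5 and 7.46 RPKM at 48 h. In these libraries it was highest at 6 h and came down at 12 h and 48 h, with replicate 1 above replicate 2 at each of these times.

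XM_004210759.1 was at 101 and 64.9 RPKM at 2 h and at 4671 and 4007 RPKM at 4 h, with a log2 fold change of 5.72 (SE 0.50, limma adjusted p = 5.769e-04). The call held in all 23 alternatives. Its 0 h libraries, at 298 and 323 RPKM, lie above those of 2 h, so the 2 h level was the lowest of the series. It then stood at 1569 and 1393 RPKM at 6 h, 2192 and 1765 RPKM at 12 h, and 1294 and 5001 RPKM at 48 h. Every library from 4 h on lies above every library of 0 h and 2 h.

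XM_004207219.1 was at 280 and 325 RPKM at 2 h and at 4.00 and 38.3 RPKM at 4 h. The 4 h replicates differ widely, and both are far below those of 2 h. Its log2 fold change was -4.43 (SE 0.71, limma adjusted p = 0.00692), and it missed the threshold in a fit restricted to the 4 libraries compared (0.0523), the highest of 23 alternatives that started at 9.711e-06. It was under 0.001 RPKM in each 6 h library, at 155 and 147 RPKM at 12 h, and at 276 and 251 RPKM at 48 h, against 221 and 228 RPKM at 0 h. The low values are thus those of 4 h and 6 h, and by 48 h the libraries lay above those of 0 h.

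XM_004212737.1 was at 72.5 and 36.1 RPKM at 2 h and at 6.99 and 1.64 RPKM at 4 h. The groups do not overlap, but its log2 fold change of -3.51 (SE 0.95) passed narrowly, with a limma adjusted p of 0.0497. The call was lost in 14 of 23 alternatives, among them median-ratio scaling (0.0662) and each fit without a library of 2 h or 4 h (0.111 to 0.262), and the range was 0.00493 to 0.262. It was under 0.001 RPKM in each 6 h library and in 12 h replicate 2, at 9.79 RPKM in 12 h replicate 1, at 84.2 and 105.8 RPKM at 48 h, and at 13.5 and 22.2 RPKM at 0 h.

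**Figure D2:**
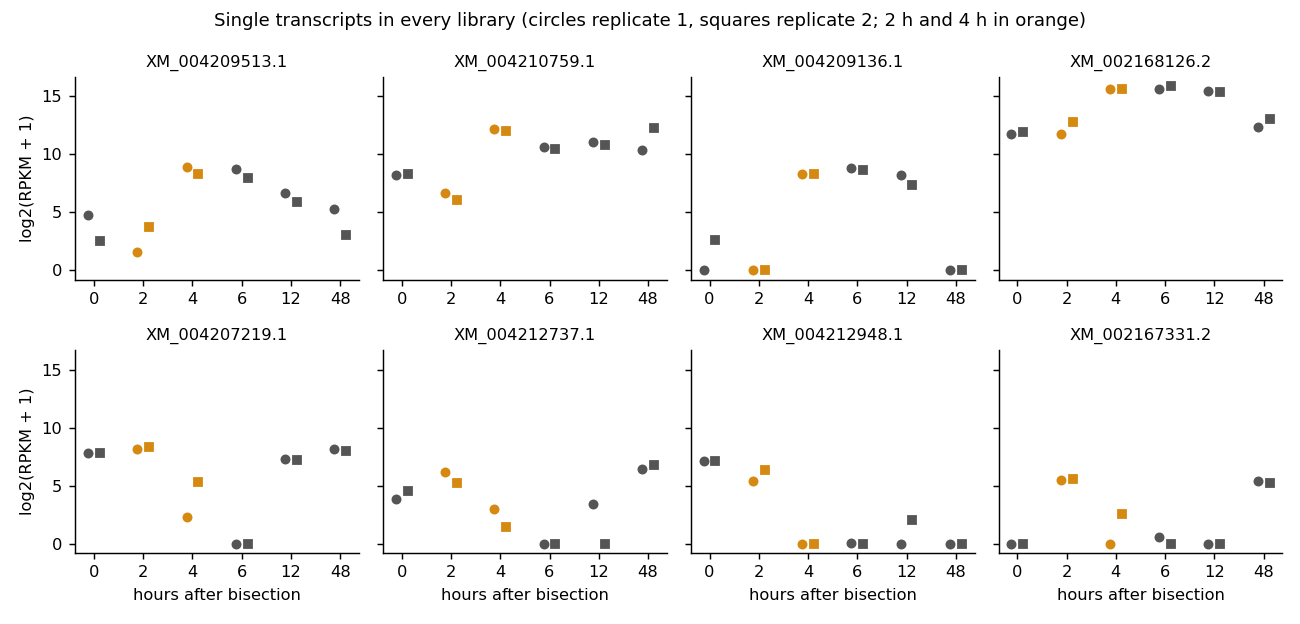
Each panel shows log2(RPKM + 1) of a named transcript in all 12 libraries by hours after bisection, with circles for replicate 1, squares for replicate 2 and the 2 h and 4 h libraries in orange. The upper panels hold rises, of which XM_002168126.2 reached 49938 RPKM on average at 4 h, and the lower panels hold falls, of which XM_004207219.1 was low at 4 h and 6 h and high again from 12 h on.

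A few transcripts went between near absence and a clear level. Under 0.1 RPKM in each 2 h library and at 5 RPKM or more in each 4 h library were 4 transcripts (0.028% of those tested), all called, and the reverse held for 6 (0.042%), of which 4 were called. All 10 had low values above 0, so none was listed at 0. The sequencing depth is unknown, and no detection limit can be given. Values under 0.001 RPKM are not whole reads, and the part of read assignment among near-identical transcripts in these changes was not tested. The same limits were crossed between the 2 replicates of a time by 24 transcripts at 2 h and 15 at 4 h. Between a library of 2 h and a library of 4 h, 16 to 20 transcripts crossed them upward and 21 to 36 downward, or 37 to 56 in both directions. Such crossings were thus more frequent between these times than between their replicates, but the replicate counts are not small beside them.

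The 2 most abundant transcripts switched on were XM_004210825.1 and XM_004209136.1. XM_004209136.1 was under 0.001 RPKM in each 2 h library, and its 4 h libraries held 321 and 316 RPKM. Its log2 fold change of 8.32 (SE 0.66, limma adjusted p = 4.338e-04) was called in all 23 alternatives. It was at 445 and 398 RPKM at 6 h and 296 and 163 RPKM at 12 h, and below 0.001 RPKM in both 48 h libraries. At 0 h it was below 0.001 RPKM in replicate 1 and at 5.12 RPKM in replicate 2, so the 6 libraries of 4 to 12 h stand apart from all others. XM_004210825.1 went from below 0.001 RPKM in both 2 h libraries to 504 and 556 RPKM at 4 h, and its lowest later value was 381 RPKM, at 6 h. It therefore stayed high at 48 h, where XM_004209136.1 did not.

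Among those switched off, the most abundant at 2 h were XM_004212948.1 and XM_004206511.1. XM_004212948.1 was at 40.9 and 80.5 RPKM at 2 h and at 0.00249 and below 0.001 RPKM at 4 h, and it reached no more than 3.04 RPKM in any later library. XM_004206511.1 was at 63.9 and 52.3 RPKM at 2 h and below 0.001 RPKM in both 4 h libraries, and no later library exceeded 0.00913 RPKM. Both were higher at 0 h than at 2 h, at 140 and 137 RPKM for XM_004212948.1 and at 320 and 299 RPKM for XM_004206511.1. Both calls held in all 23 alternatives. All 6 transcripts switched off and 3 of the 4 switched on belong to the XM_004 accession series, which holds 5424 of the transcripts tested.

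Wnt3 itself did not pass at this step, but it passed as a rise over 0 h at 6 h, 12 h and 48 h. Those log2 fold changes were 1.29, 1.39 and 1.87 (limma adjusted p = 0.00967, 0.00579 and 0.00141). It was at 1.98 and 2.72 RPKM at 0 h, and at 8.30 and 6.15 RPKM at 6 h. Later values were 6.71 and 8.93 RPKM at 12 h and 12.4 and 10.1 RPKM at 48 h. Its level was 3.78 and 4.30 RPKM at 2 h, against 6.91 and 5.29 RPKM at 4 h, where both values are higher. Its log2 fold change was 0.49 (SE 0.27) with a limma adjusted p of 0.299. The adjusted p lay between 0.103 and 0.733 in the 23 alternatives, and the log2 fold change between 0.29 and 0.76.

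Changes between 2 h and 4 h were then followed in contrasts that hold none of the 4 libraries. The fold changes of those contrasts thus come from other pools than the change from 2 h to 4 h. The calls themselves also rest on the spread in all 12 libraries, so the choice of transcripts is not separate from these pools. Against 0 h, 334 of the 475 rises (70.3%) also rose at 6 h, where 5.34% of all transcripts tested rose, and none fell. Of the 345 falls, 238 (69.0%) also fell at 6 h, where 8.92% of all fell, and 2 rose. These make up 43.8% of the 762 rises and 18.7% of the 1274 falls of 6 h against 0 h. The estimate of the spread is shared by all contrasts of the model, so transcripts with a small spread can pass more easily in each. Counted without a test, both 6 h libraries lay above both 0 h libraries for 92.4% of the rises, against 20.2% of all transcripts. Both lay below them for 92.2% of the falls, against 50.3%. A small spread also makes such a separation easier, so these shares are not free of that limit. The median change at 6 h was 1.51 for the rises and -1.28 for the falls, against -0.30 for all. With median-ratio scaling these medians were 1.83, -0.98 and -0.01.

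At 12 h against 0 h, 282 of the rises (59.4%) also rose, where 5.51% of all transcripts did, and 207 of the falls (60.0%) also fell, where 12.9% did. At 48 h against 0 h the counts were 102 rises (21.5%), where 5.29% of all rose, and 133 falls (38.6%), where 17.1% of all fell. By then 29 of the rises had fallen below 0 h past the threshold, and 10 of the falls had risen above it. The median change at 48 h was 0.29 for the rises and -0.85 for the falls, against -0.39 for all transcripts, and 0.66, -0.51 and -0.05 with median-ratio scaling. The count of falls followed in this way dropped under that scaling, to 107 at 6 h, 99 at 12 h and 45 at 48 h, out of the 205 falls it left. That of the rises became 460, 412 and 190 out of 622. The shares of all transcripts called under that scaling are not given, so the unscaled shares above cannot be set beside these counts. Leaving out any library of 2 h, 4 h or 6 h left smaller sets of rises and falls, and fewer were followed. A smaller count followed in those fits is therefore not by itself a smaller share. In fits of only the libraries compared, 32 of 570 rises and 32 of 577 falls were followed at 48 h, and the share of all transcripts there is not given. The replicates differ most at 48 h, and the part of that difference in these counts was not tested.

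**Figure D3:**
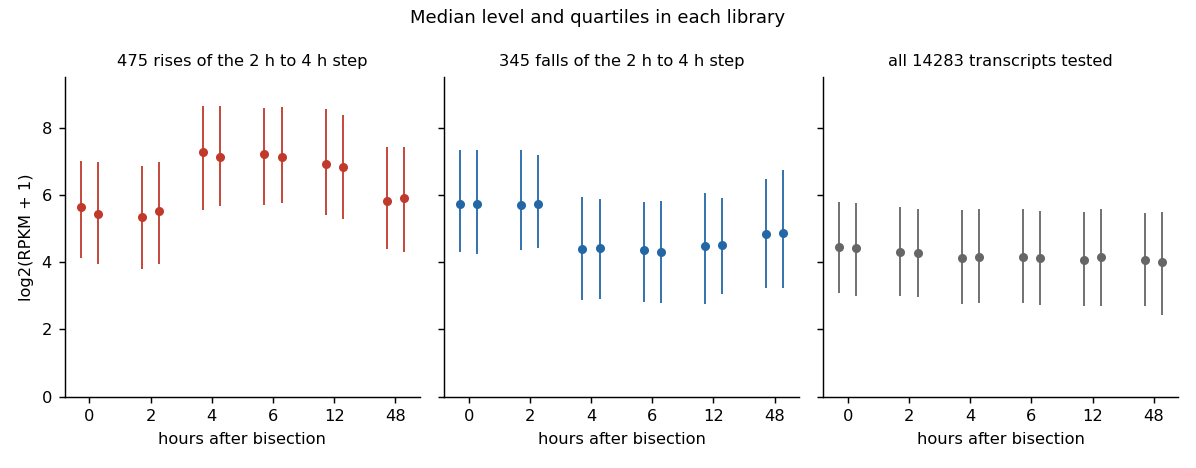
Points are the median log2(RPKM + 1) in each library, replicate 1 to the left, and bars span the quartiles, for the 475 rises, the 345 falls and all 14283 transcripts tested. The rises sit near 7 from 4 h to 12 h and below 6 at 0, 2 and 48 h, and the falls sit near 4.4 from 4 h to 6 h.

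The median levels trace the same course. The median RPKM of the rises was 39.5 and 44.7 in the 2 h libraries, 153 and 139 at 4 h, 146 and 140 at 6 h, 121 and 112 at 12 h, and 56.0 and 59.2 at 48 h, after 49.4 and 42.2 at 0 h. The libraries of 4, 6 and 12 h all lie above those of 0, 2 and 48 h. The median RPKM of the falls was 51.1 and 51.9 at 2 h, 20.2 and 20.4 at 4 h, 19.6 and 18.9 at 6 h, 21.5 and 22.0 at 12 h, and 27.4 and 28.0 at 48 h, after 52.3 and 51.5 at 0 h. For the falls the 48 h libraries lie between those of 4 to 12 h and those of 0 h and 2 h.

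From 12 h to 48 h, a step that shares no library with that from 2 h to 4 h, 190 of the 475 rises fell (40.0%), where 4.67% of all transcripts fell, and 2 rose. They make up 28.5% of the 667 falls of that later step. Of the 345 falls, 77 rose (22.3%), where 2.45% of all rose, and 8 fell, and they make up 22.0% of the 350 later rises. The median change from 12 h to 48 h was -0.91 for the rises and 0.38 for the falls, against -0.06 for all. Leaving out each library in turn, the share of rises that later fell ranged from 28.7% to 48.9%, and that of falls that later rose from 13.1% to 34.7%. From 6 h to 12 h, 42 of the rises fell (8.84%, against 1.44% of all) and 11 rose (2.32%, against 0.987%). By size, 18 of the 19 rises of 4 or more on the log2 scale passed at 6 h against 0 h, 80.2% of those between 2 and 4, and 65.4% of those between 1 and 2. For the falls the order was the opposite, with 4 of the 9 of 4 or more in size, 61.1% of those between 2 and 4, and 70.7% of those between 1 and 2. Differences between the sizes were not tested.

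**Figure D4:**
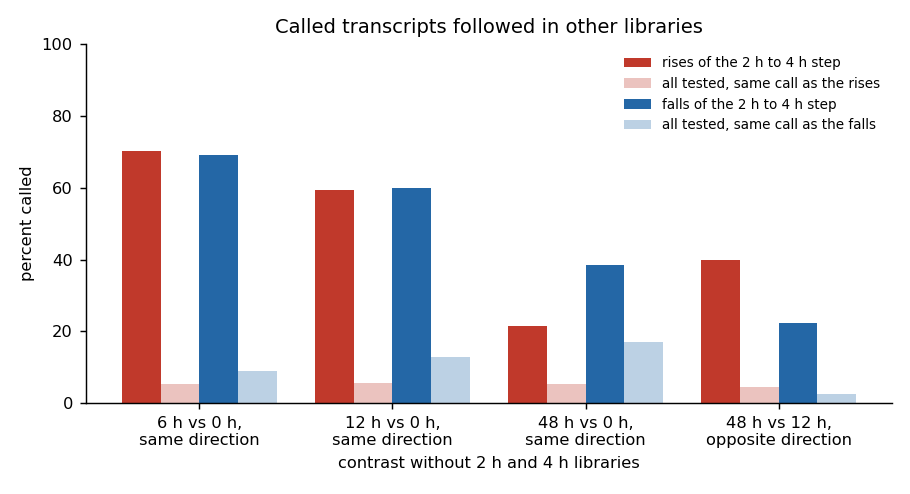
Bars give the percent of the 475 rises (dark red) and 345 falls (dark blue) called in contrasts without 2 h and 4 h libraries, beside the percent of all transcripts tested with that call (pale). At 6 h against 0 h, 70.3% of the rises and 69.0% of the falls passed in the same direction, and from 12 h to 48 h 40.0% and 22.3% passed in the opposite direction.

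The steps on either side of it, each also 2 h long, had few calls: 35 from 0 h to 2 h (0.245%) and 30 from 4 h to 6 h (0.21%). From 6 h to 12 h there were 347 (2.43%) and from 12 h to 48 h 1017 (7.12%), over longer intervals. At an unadjusted limma p below 0.05, 2293 transcripts passed from 0 h to 2 h, 3703 from 2 h to 4 h and 849 from 4 h to 6 h. Whether the change of a transcript differed between steps was tested as a contrast of its own. Against the step from 0 h to 2 h, 119 transcripts differed (0.833%), 86 (0.602%) with a more positive and 33 (0.231%) with a more negative change from 2 h to 4 h. Both steps use the 2 h libraries, so an error at 2 h moves the 2 changes in opposite directions. Of the 119, 99 changed in opposite directions. Against the step from 4 h to 6 h, 99 differed (0.693%), 81 (0.567%) and 18 (0.126%). Those steps share the 4 h libraries, and 83 of the 99 changed in opposite directions. For most of the calls, a difference from the neighbouring steps was thus not detected.

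These counts were unstable. The 119 differences from the step before shrank most when 2 h replicate 1 was left out, to 2. They were 20 when 4 h replicate 1 was omitted, 41 for 4 h replicate 2, 36 for 0 h replicate 2, 79 for 0 h replicate 1, and 40 for either 6 h library. Omitting 48 h replicate 1 gave 429, and omitting its partner 436. The 99 differences from the step after were 7 when 4 h replicate 1 was omitted, 8 for 4 h replicate 2, 16 for 2 h replicate 1, 12 for 6 h replicate 1, 17 for 6 h replicate 2, and 62 for either 0 h library. Omitting 48 h replicate 1 gave 226, and omitting its partner 223. A fit with replicate number as a block gave 69 and 63. The 48 h and 0 h libraries enter only through the shared estimate of the spread, except for 0 h in the first of these contrasts.

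**Figure D5:**
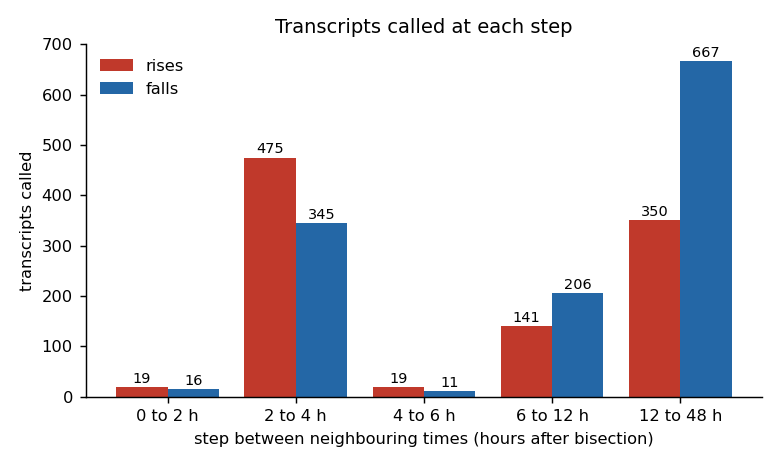
Bars give the number of transcripts called as rising (red) or falling (blue) at each step between neighbouring times. The step from 2 h to 4 h has 475 rises and 345 falls, or 820 calls, against 35 calls before it and 30 after it.

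XM_004209514.1 had the largest positive difference from the step before. It was at 102 and 15.5 RPKM at 0 h, at 0.832 and 2.50 RPKM at 2 h, and at 256 and 124 RPKM at 4 h. The 2 h libraries are the lowest of all 12. The change from 2 h to 4 h exceeded that from 0 h to 2 h by 10.17 on the log2 scale (limma adjusted p = 0.0323), but 9 of 23 alternatives ended this call, with an adjusted p of up to 0.239 without 2 h replicate 1. Its rise from 2 h to 4 h was 6.14 (SE 0.93, adjusted p = 0.00518) and missed the threshold without 4 h replicate 1 (0.0555). Its accession number follows directly on that of XM_004209513.1, which was also lowest in 2 h replicate 1 and higher in replicate 1 than in replicate 2 from 4 h on.

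XM_004209136.1 had the next largest, 9.63 (adjusted p = 0.0135), which ended when 2 h replicate 1 (0.121) or 4 h replicate 1 (0.0508) was omitted and in a fit restricted to the times compared (0.0606). The largest negative difference was that of XM_002167331.2, at below 0.001 RPKM in both 0 h libraries, 44.0 and 47.4 RPKM at 2 h, and below 0.001 and 4.77 RPKM at 4 h. The 2 h libraries are the highest of all 12, followed by those of 48 h at 41.3 and 36.9 RPKM. The difference was -9.82 (limma adjusted p = 0.0115), lost with a pseudocount of 0.1 (0.0534), in a fit restricted to the times compared (0.0593) and when 2 h replicate 1 was omitted (0.111). XM_002168509.2 was near 0 RPKM at 0 h, with 0.0111 and 0.00519 RPKM, and then at 14.8 and 44.2 RPKM at 2 h and 12.4 and 19.6 RPKM at 4 h. Its difference of -5.42 (adjusted p = 0.0473) was lost in 16 of 23 alternatives, up to 0.221.

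Against the step from 4 h to 6 h, the largest positive differences were those of XM_004210825.1, at 9.05 (limma adjusted p = 3.924e-04), and XM_004209136.1, at 7.92 (0.0253). The first held in all 23 alternatives, and the second was lost in 9 of them, up to 0.286. The largest negative difference was that of XM_002158972.2, at below 0.001 and 0.453 RPKM at 2 h, 3.11 and 0.117 RPKM at 4 h, and 248 and 253 RPKM at 6 h. It rose after the step described here, and its difference of -6.04 (adjusted p = 0.0346) was lost in 12 alternatives, up to 0.267. XM_004206511.1 had the next, at -5.88 (adjusted p = 3.924e-04), which held in all 23.

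Against the step from 6 h to 12 h, with which it shares no library, the change from 2 h to 4 h differed for 1077 transcripts (7.54%), 600 (4.2%) more positive and 477 (3.34%) more negative. Omitting 4 h replicate 1 left 427, and omitting its partner 518. The count was 570 when 2 h replicate 1 was omitted, 493 and 454 when the first or second 6 h library was, and 673 for 12 h replicate 2. Omitting 48 h replicate 1 gave 1642, and omitting its partner 1641. XM_004207720.1 had the largest positive difference, 10.78 (limma adjusted p = 0.0252), with 40.5 and 12.6 RPKM at 2 h, 352 and 297 RPKM at 4 h, 947 and 962 RPKM at 6 h, and 47.6 and 0.134 RPKM at 12 h. It was thus high at 4 h and 6 h and back near its 2 h level, or below it, at 12 h. Its own change from 2 h to 4 h, 3.77 with an SE of 1.66, did not pass (adjusted p = 0.191), and the difference was lost in 8 of 23 alternatives, up to 0.0900. XM_004209136.1 came next, at 9.25 (adjusted p = 0.00102), and held in all 23. The largest negative differences were those of XM_004207219.1, at -11.68 (adjusted p = 4.601e-04), which held in all 23, and XM_004210982.1, at -10.46 (0.0386), which was lost in 10. The latter was at 33.4 RPKM in both 2 h libraries and below 0.001 RPKM in the 4 libraries of 4 h and 6 h, and it stood at 32.9 and 48.5 RPKM at 12 h. Its own change from 2 h to 4 h did not pass (limma adjusted p = 0.11), and its replicates were far apart at 0 h, at 71.3 RPKM and below 0.001 RPKM, and at 48 h, at 21.1 RPKM and below 0.001 RPKM.

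Against the step from 12 h to 48 h, with which it shares no library either, 1859 transcripts differed (13%), 1022 (7.16%) more positive and 837 (5.86%) more negative. Omitting 4 h replicate 1 left 1013, 4 h replicate 2 1200 and 2 h replicate 1 1183, and omitting 48 h replicate 1 gave 3092. XM_004209136.1 and XR_181873.1 had the largest positive differences, 16.10 (limma adjusted p = 4.303e-05) and 15.54 (8.185e-06), and both held in all 23 alternatives. The predicted non-coding XR_181873.1 was under 0.001 RPKM in each 2 h library, at 196 and 197 RPKM at 4 h, 386 and 151 RPKM at 12 h, and below 0.001 RPKM in both 48 h libraries. The largest negative differences were those of XM_004206625.1, at -10.44 (adjusted p = 1.394e-04), and XM_004210848.1, at -10.41 (0.00545), of which the second was lost with weights per library (0.0525). XM_004206625.1 was at 266 and 144 RPKM at 2 h and 42.2 and 39.5 RPKM at 4 h, listed at 0 and below 0.001 RPKM at 12 h, and at 189 and 456 RPKM at 48 h. XM_004210848.1 was at 335 and 310 RPKM at 2 h, 3.50 and 47.0 RPKM at 4 h, below 0.001 RPKM in both 12 h libraries, and 49.8 and 73.9 RPKM at 48 h. Its own change from 2 h to 4 h was -4.46 with an SE of 1.26 and did not pass (adjusted p = 0.0567).

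The replicates of 2 h and of 4 h were closer to each other than those of 0, 12 and 48 h. Across transcripts, r between replicates was 0.975 for 2 h and 0.982 for 4 h, against 0.910 to 0.948 for 0, 12 and 48 h, and libraries of 2 h with those of 4 h at 0.931 to 0.941. Transcripts are not independent replicates, so these values are descriptions. The 2 h libraries summed to 1381217 and 1396806 RPKM and those of 4 h to 1510884 and 1535758 RPKM, and the 20 most abundant transcripts held 16.0% in each 2 h library and 19.8% and 19.4% at 4 h. The part of this difference in the calls was not tested beyond the scalings given. The libraries with the fewest transcripts above 0 were 48 h replicate 2 and 0 h replicate 2, with 14492 and 15519 of 17353. Without both of them, an alternative chosen after seeing the data, 571 transcripts rose and 516 fell from 2 h to 4 h.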

How the data were processed

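Polyadenylated RNA from 12 pools was sequenced strand-specifically as 50 bp single reads, per the labels' protocols. Reads went through Bowtie 0.12.8, per the submitters' processing notes; the labels name no build, transcript set, counting rule or filter. The authors deposited RPKM values per transcript and library. In each library 1489 to 1968 values were positive yet under 0.001 RPKM, so they are not whole reads, depth is unknown, and near-identical transcripts are uncertain.

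From these values, log2(RPKM + 1) was fitted with a mean per time to all 12 libraries in limma 3.58.1 (R 4.3.3) with a variance trend and 6 residual degrees of freedom. Contrasts were 4 h minus 2 h, its differences from the other steps, and 6, 12 and 48 h minus 0 h. Tests were two-sided, adjusted by Benjamini-Hochberg over 14283 transcripts. Named are Wnt3, the 2 largest graded rises and falls, the 2 most abundant called transcripts switched on and off, and the 2 largest differences each way from every other step. XM_002168126.2 and XR_181677.1 lie outside that rule. Transcripts and lists were chosen with earlier results of these data known. Of the identifiers, 1 matched the RefSeq gene list of the HydraT2T_AEP assembly, used for names alone.

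On simulated data for 2 h to 4 h over 14283 transcripts, 54 of 100 changes of 1.5 and 89 of 100 of 3 (log2) were recovered, and 4 of 14083 unchanged transcripts were called. The simulated noise was normal, with the same spread of a transcript at every time. In the data the SD of log2 differences between replicates ran from 0.425 at 4 h to 1.02 at 48 h. The simulated rates may therefore not hold for these data. Alternatives were pseudocounts of 0.1 and 5, other filters and scalings, no variance trend, library weights, a replicate block, only the times compared, and each library left out.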

Additional observations from a re-analysis of the deposited data

How the results depend on the processing

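Of 307 counts recomputed under alternatives, 214 stayed within 1.5 times the reported value and 93 moved further. With median-ratio scaling the falls from 2 h to 4 h numbered 205; 107, 99 and 45 falls were followed at 6, 12 and 48 h, and 190 rises at 48 h. With quantile normalization 231 transcripts differed from the 0 h to 2 h step, and 156 rises and 82 falls were followed at 48 h. A pseudocount of 5 left 83 falls followed at 48 h. Without the variance trend 41 transcripts differed from the 0 h to 2 h step and 21 from the 4 h to 6 h step. Weights per library gave 1292 calls, 647 of them falls, 384 falls followed at 6 h, and 906, 844 and 1805 transcripts that differed from the steps ending at 2 h, 6 h and 12 h. Only the times compared gave 570 rises and 577 falls, of which 32 rises and 32 falls were followed at 48 h. That setting gave 8, 230 and 1742 transcripts that differed from the steps ending at 2 h, 6 h and 12 h. With limits of 0.1 and 1 RPKM, 15 transcripts switched on and 29 off. For the counts followed, the shares of all transcripts under the alternatives are not given. The cause of these shifts was not tested.

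Leaving out libraries in turn, and 0 h replicate 2 with 48 h replicate 2 together, gave 283 to 1087 calls from 2 h to 4 h, with 188 to 571 rises and 95 to 516 falls. Differences numbered 2 to 436 from the 0 h to 2 h step, 7 to 226 from the 4 h to 6 h step, 427 to 1747 from the 6 h to 12 h step, and 1013 to 3092 from the last step. Rises followed at 6, 12 and 48 h numbered 158 to 371, 139 to 319 and 39 to 117, and falls 82 to 337, 75 to 289 and 37 to 197. Where a time kept 1 library, it was assumed to vary like the others.

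The replicate block gave 751 calls, 453 rises and 298 falls, and 69 and 63 differences from the 0 h to 2 h and 4 h to 6 h steps. The deviations of same-numbered libraries of 2 h and 4 h correlated at -0.054 across transcripts, and those of the 15 pairs of times at -0.098 to 0.234, highest for 4 h with 6 h. The numbers were not taken to pair the samples. Under alternatives the change of Wnt3 from 2 h to 4 h stayed below the threshold in all 23. Direction reversed for XM_002168509.2 without 2 h replicate 2 and for XM_002158972.2 without 4 h replicate 1, neither of which passed at this step. Their log2 fold changes ranged from -1.4432 to 0.0702 and from -0.1093 to 1.7711 over the libraries left out.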
